A study of Mus musculus with 13 samples.

Results

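The 10 genes described here encode the main motors that carry cargo along the microtubules of an axon and their closest partners. They were chosen by name: Kif5a, Kif5b and Kif5c (kinesin-1 heavy chains), Klc1 (a kinesin-1 light chain), Kif1a and Kif1b (kinesin-3), Kif3a (a kinesin-2 motor subunit), Dync1h1 and Dync1i1 (cytoplasmic dynein heavy and intermediate chains) and Dctn1 (the p150Glued subunit of dynactin). They are 10 of the 48709 genes counted in the series, and all 10 were among the 17403 genes with enough reads to be tested. No measured value enters that rule, but the genes were chosen with earlier results of these data known.

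Each of the 13 libraries holds RNA from motoneurons of 1 mouse aged 65 days, and every mouse, controls included, carries the mutant human SOD1-G93A transgene, a model of amyotrophic lateral sclerosis. No wild-type mice are among the groups, so the comparisons are between treatments of mutant mice. In the AAV-miR SOD1 group (4 mice), an adeno-associated virus given into the brain ventricles at postnatal day 2 expresses an artificial microRNA against human SOD1 in astrocytes rather than in the captured cells. The AAV-miR ctrl group (5 mice) received a control vector by the same route at the same age, and the non-injected group (4 mice) consists of untreated littermates. From each animal 500 motoneurons were taken by laser microdissection from stained sections of lumbar spinal cord frozen inside its vertebrae.

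In neurons, kinesins mostly walk towards the microtubule plus ends and so carry mitochondria, synaptic vesicle precursors and other cargo from the cell body to the terminals. Cytoplasmic dynein, bound to its cofactor dynactin, walks the opposite way and returns signalling endosomes and worn organelles. Motoneurons have among the longest axons of the body, and inherited changes in several of these genes, KIF5A, KIF1A, DYNC1H1 and DCTN1 among them, cause human neuropathies or motoneuron diseases.

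Depth ran from 13.9 to 37.4 megacounts in genes per library, and each of the 10 genes had at least 769 reads in every library. These are reads of amplified cDNA, so the number of RNA molecules behind them is not known. Controls numbered 5 or 6 (4 libraries) stood apart from the rest: together with non-injected replicate 3 they had the highest summed motor gene levels, and these 4, not non-injected replicate 3, were also the deepest (29.7 to 37.4 megacounts, the others at most 23.1) and had the lowest shares of reads aligned to several places (42.3 to 46.6%, the others 49.9 to 56.8%). The part of these differences in the motor gene values was not tested. The AAV-miR SOD1 group has no library with those numbers. The labels do not say what the numbers stand for. In 2 tables the column header disagreed with the sample label: that of non-injected replicate 3 names the AAV-miR ctrl group, and that of AAV-miR ctrl replicate 3 names a SOD group. The labels were followed. The exchange reported below gave each of these 2 libraries the group of the other, which reads the SOD header as the non-injected group. No alternative placed that library in the AAV-miR SOD1 group. Mouse Sod1, which is not the target of the artificial microRNA, had 168 to 273 CPM (read counts scaled to a common library size) in the AAV-miR SOD1 group and 219.9 to 472 CPM in the controls (log2 fold change -0.39 ± 0.22 SE against both control groups, edgeR adjusted p = 0.327). Whether transgene reads were counted with it cannot be told from the tables, so this checks no label.

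The start regions of these genes differ in base composition. RefSeq promoter windows (build GRCm38.p6, the 250 bases before the annotated start) were taken for 8 of the 10 genes. No window was found for Kif5a, and Kif5b was left out of this step. The Dctn1 window was set aside because its start lay 13669 bases from the GENCODE start of the gene. The windows of 3 genes are printed: Klc1 and Dync1i1, the genes with the largest differences described below, and Kif1b, the gene in which the control groups differed most. Sequences run 5′ to 3′ on the coding strand, and capitals mark matches, on either strand, to the GC box GGGCGG, the cAMP response element TGACGTCA, the CCAAT box CCAAT or the TATA box TATAAA.
Klc1, chr12:111758618-111758867, plus strand: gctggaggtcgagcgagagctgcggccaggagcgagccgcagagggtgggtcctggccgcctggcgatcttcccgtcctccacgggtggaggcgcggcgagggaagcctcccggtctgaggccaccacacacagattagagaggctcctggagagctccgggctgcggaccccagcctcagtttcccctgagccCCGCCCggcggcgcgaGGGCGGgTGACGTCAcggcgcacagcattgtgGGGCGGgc
Dync1i1, chr6:5725389-5725638, plus strand: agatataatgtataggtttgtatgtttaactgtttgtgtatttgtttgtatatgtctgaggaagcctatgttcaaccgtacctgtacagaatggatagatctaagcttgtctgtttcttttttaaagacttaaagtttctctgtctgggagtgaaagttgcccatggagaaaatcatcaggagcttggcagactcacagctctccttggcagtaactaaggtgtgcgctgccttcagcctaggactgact
Kif1b, chr4:149307699-149307948, minus strand: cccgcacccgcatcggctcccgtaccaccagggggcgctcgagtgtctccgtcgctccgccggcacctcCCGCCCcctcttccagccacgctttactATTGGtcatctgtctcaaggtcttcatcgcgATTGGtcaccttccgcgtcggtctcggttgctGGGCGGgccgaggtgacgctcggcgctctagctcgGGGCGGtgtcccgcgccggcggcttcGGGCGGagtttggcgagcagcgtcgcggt
The Klc1 window held 3 GC boxes and 1 cAMP response element with a GC content of 72.4%, and the Kif1b window held 4 GC boxes and 2 CCAAT matches. No printed match overlapped another. The Dync1i1 window had none of the 4 motifs, 2 CpG dinucleotides and a GC content of 40.8%, against a median of 6 CpG and 52.4% GC over all 32851 windows in the table. Over those windows, 32.7% held the GC box, 33.8% CCAAT, 12.4% TATAAA and 1.55% the cAMP response element. The cAMP response element was also present in the Kif5c window (chr2:49619036-49619285, plus strand). These are matches of letters only.

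Levels can be compared between genes only per length, so CPM were divided by the merged exon length of each gene. Klc1 had by far the highest level, with a median of 80.4 CPM per kb over the 13 libraries (range 46.7 to 167), and its mean of 100.5 CPM per kb lay above 96.6% of the 17363 tested genes with a length. Dync1i1 followed at 34.5, then Kif5b at 29.7, Kif5c at 23.9, Kif3a at 22.6, Kif1a at 19.6, Dctn1 at 19.2, Kif1b at 12.7, Kif5a at 12.6 and Dync1h1 at 11.7 CPM per kb. Even Dync1h1, with a mean of 12.1 CPM per kb, lay above 78.5% of them. Only 2 neighbouring pairs kept their order in all 13 libraries, Klc1 above Dync1i1 and Dctn1 above Kif1b. The other neighbours changed places in 1 to 7 libraries, from Kif3a and Kif1a, in that order in 12 libraries, to Kif1b and Kif5a, in that order in 6.

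All 10 motor genes had lower fitted levels in the AAV-miR SOD1 group than in either control group (53.7% of all tested genes did against AAV-miR ctrl, 55.1% against non-injected and 54.2% against both), and none passed the adjusted threshold of 0.05 in edgeR's quasi-likelihood test. Against AAV-miR ctrl, 6 of the 10 were lower at an unadjusted p under 0.05, where 8.54% of all tested genes were. Against the non-injected group 9 of 10 were, where 11.5% of all genes were. The median log2 fold change of the 10 genes was -0.70 against AAV-miR ctrl and -0.87 against non-injected, beside medians of -0.05 and -0.09 over all tested genes. Between the control groups, AAV-miR ctrl against non-injected, the median of the 10 was -0.13 and 1 gene, Kif1b, was lower at an unadjusted p under 0.05, where 2.24% of all genes were. These comparisons share libraries, so they are not independent of one another.

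**Figure D1:**
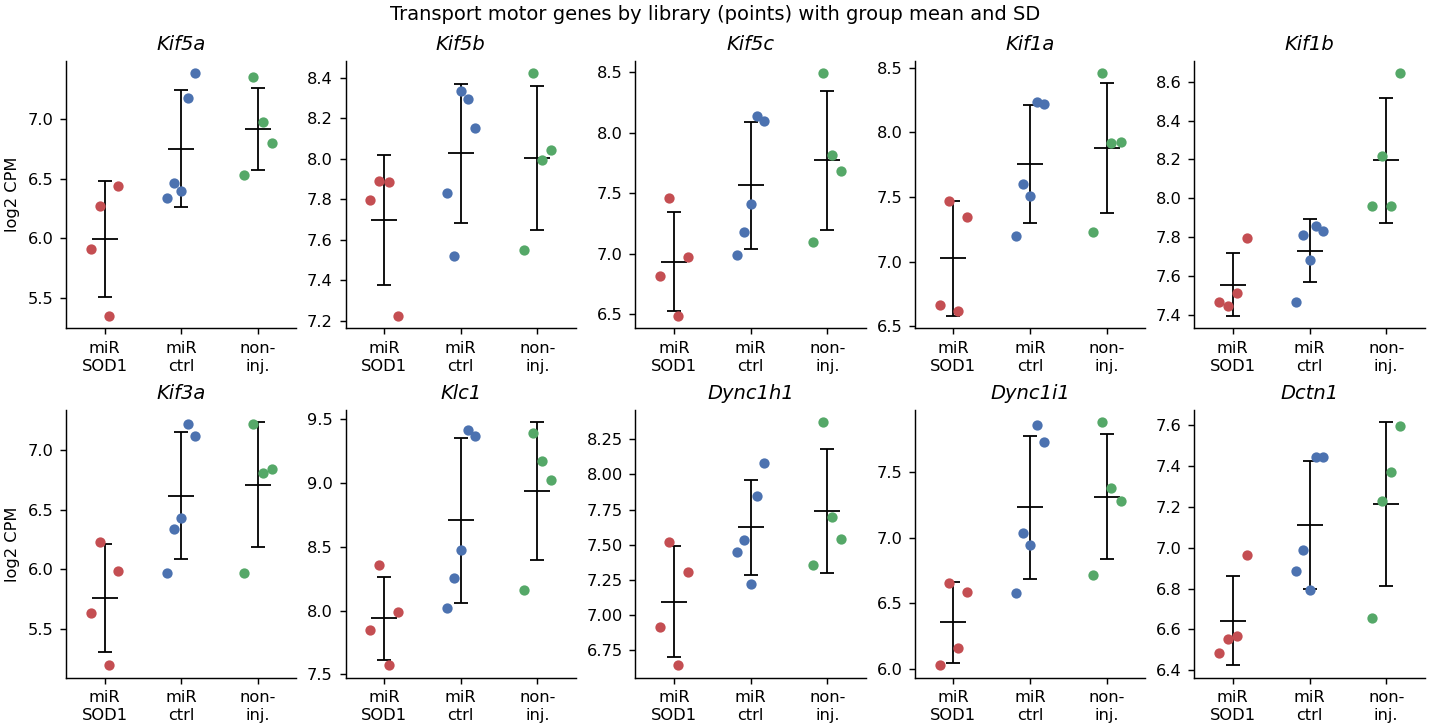
Log2 CPM (vertical axis, a separate range for each gene) of the 10 motor genes in each library (points), with group mean and SD (bars), for 4 AAV-miR SOD1, 5 AAV-miR ctrl and 4 non-injected mice. Kif5a, Kif1b and Dync1i1 are the genes whose AAV-miR SOD1 and non-injected libraries do not overlap (5.81% of all tested genes were lower without overlap). All 10 genes overlap between AAV-miR SOD1 and AAV-miR ctrl.

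Kinesin-1 is a tetramer of heavy chains, which hold the motor domain, and light chains, which bind cargo. Kif5a (ENSMUSG00000074657, chr10:127225696-127263348, minus strand, GRCm38) is the heavy chain enriched in neurons and the one linked to human motor disease. It had 60.0, 77.2, 40.7 and 86.8 CPM in AAV-miR SOD1 replicates 1 to 4. The AAV-miR ctrl replicates 1, 3, 4, 5 and 6 had 80.9, 88.1, 84.1, 144 and 166 CPM, and non-injected replicates 2, 3, 5 and 6 had 92.2, 162, 126 and 111 CPM. All non-injected libraries lay above the AAV-miR SOD1 range, whereas 2 AAV-miR ctrl libraries fell below the highest AAV-miR SOD1 value. Against AAV-miR ctrl the log2 fold change was -0.77 ± 0.29, here and below ± SE (edgeR adjusted p = 0.277) and against non-injected -0.89 ± 0.30 (edgeR adjusted p = 0.147). No overlap with the non-injected group in the lower direction, as for Kif5a, was found for 5.81% of all tested genes.

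Kif5b (ENSMUSG00000006740), the heavy chain made in nearly all cell types, was the gene with the smallest difference from the pooled control groups. Its AAV-miR SOD1 libraries had 222, 237, 236.5 and 149 CPM, with replicate 4 well below the others. AAV-miR ctrl libraries had 228, 183, 322.5, 314 and 284 CPM, and non-injected libraries 187.5, 343, 255 and 263.5 CPM. The groups overlapped, and the log2 fold change against both control groups was -0.32 ± 0.21 (edgeR adjusted p = 0.401), with a 95% interval of -0.78 to 0.13 that spans no change. Exons of Kif5b share 324 bases with antisense genes, and since the strand setting is not given in the sources used here, reads from these bases cannot be assigned with certainty.

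Kif5c (ENSMUSG00000026764, chr2:49619298-49774778, plus strand), a second heavy chain enriched in neurons, had 126 ± 36.8 CPM (SD, n = 4) in AAV-miR SOD1, 199.8 ± 73.1 (n = 5) in AAV-miR ctrl and 232 ± 93.4 (n = 4) in non-injected mice. Its log2 fold changes, -0.66 ± 0.32 and -0.88 ± 0.34 against these controls (edgeR adjusted p = 0.363 and 0.172), were close to those of Kif5a. The balance of the heavy chains can be read within each library, where total depth cancels but the mix of captured cells does not. The part of that mix in these shares was not tested. Per length, Kif5b made up 49.7 ± 10.1% (SD) of the summed heavy chain level in AAV-miR SOD1, 43.8 ± 6.96% in AAV-miR ctrl and 40.2 ± 2.63% in non-injected mice. The AAV-miR SOD1 libraries spanned 38.3 to 61.8% and overlapped the ranges of both control groups, 36.4 to 52.9% and 36.9 to 42.5%.

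**Figure D2:**
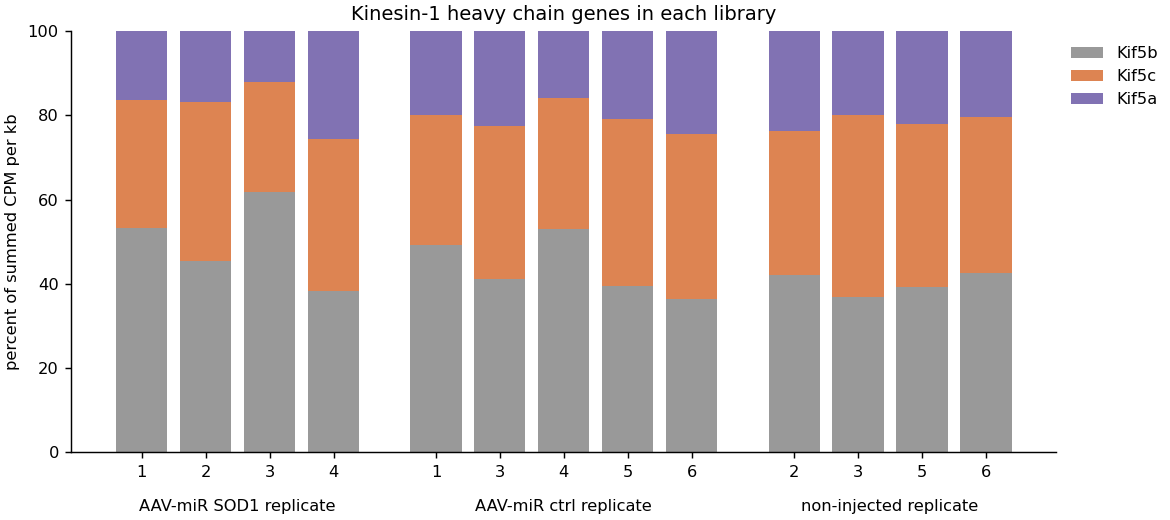
Share of Kif5b, Kif5c and Kif5a in the summed CPM per kb of the kinesin-1 heavy chains (stacked bars, percent) in each of the 13 libraries. AAV-miR SOD1 replicates 3 and 4 hold the highest and one of the lowest Kif5b shares, 61.8% and 38.3%.

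Klc1 (ENSMUSG00000021288, chr12:111758849-111807844, plus strand), the main neuronal light chain, had 230.4, 327, 190.1 and 254 CPM in AAV-miR SOD1 replicates 1 to 4. In AAV-miR ctrl it had 259, 305, 356, 680 and 661 CPM, and in non-injected mice 287, 670, 577.5 and 519.7 CPM. Replicate 2 of the AAV-miR SOD1 group lay above the lowest libraries of both control groups, and the controls themselves split into 4 libraries of 259 to 356 CPM and 5 of 519.7 to 680 CPM. It differed from AAV-miR ctrl by a log2 fold change of -0.85 ± 0.34 (edgeR adjusted p = 0.292) and from non-injected by -1.04 ± 0.35 (edgeR adjusted p = 0.147), the latter the largest difference among the 10 genes in that comparison.

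Kif1a and Kif1b are kinesin-3 motors, monomers that pair up on cargo and carry synaptic vesicle precursors, with a Kif1b isoform that carries mitochondria. Kif1a (ENSMUSG00000014602, chr1:93015464-93101951, minus strand) ranged from 98.1 to 177 CPM in AAV-miR SOD1, 147 to 301 in AAV-miR ctrl and 150.2 to 352 in non-injected mice. Its log2 fold changes were -0.74 ± 0.30 and -0.87 ± 0.31 against the respective controls (edgeR adjusted p = 0.302 and 0.156).

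Kif1b (ENSMUSG00000063077, chr4:149176319-149307693, minus strand), whose start region is printed above, followed another pattern. AAV-miR SOD1 libraries had 177, 174, 182 and 222 CPM, AAV-miR ctrl libraries had 177, 224, 205, 232 and 228 CPM, and non-injected libraries had 249, 298, 249 and 399.8 CPM. The injected groups lay in nearly the same range, and all 4 non-injected libraries lay above both. The log2 fold change was -0.17 ± 0.19 for AAV-miR SOD1 against AAV-miR ctrl (edgeR adjusted p = 0.699, 95% interval -0.57 to 0.23) and -0.66 ± 0.20 against non-injected (edgeR adjusted p = 0.140). For AAV-miR ctrl against non-injected it was -0.49 ± 0.18, with an unadjusted p of 0.0196 and an edgeR adjusted p of 1.00; 0.517% of all tested genes showed such lower values without overlap. With the 2 libraries whose headers disagree exchanged, this difference was -0.30, and without non-injected replicate 6 it was -0.32, neither under an unadjusted p of 0.05 (0.176 and 0.102), and among libraries numbered 1 to 4 it was -0.43 (unadjusted p = 0.0957). Kif1a as a share of the summed Kif1a and Kif1b level per length was 56.5 ± 6.97% (SD) in AAV-miR SOD1, 65.6 ± 5.06% in AAV-miR ctrl and 60.1 ± 8.01% in non-injected mice, with overlapping ranges.

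Kif3a (ENSMUSG00000018395, chr11:53567379-53601967, plus strand) forms heterotrimeric kinesin-2 with Kif3b and Kap3 and also serves transport within cilia. It had 49.4, 74.9, 36.4 and 63.2 CPM in AAV-miR SOD1, 62.6, 80.9, 86.3, 149 and 139 CPM in AAV-miR ctrl, and 62.6, 149, 112 and 114 CPM in non-injected mice. The AAV-miR SOD1 replicates 2 and 4 lay above the lowest control libraries, and the others lay below every control. Its log2 fold changes were -0.89 ± 0.32 (edgeR adjusted p = 0.277) and -0.97 ± 0.33 (edgeR adjusted p = 0.147).

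Cytoplasmic dynein carries cargo inward on a pair of heavy chains, which hold the motor, and intermediate chains, which bind dynactin. Dync1i1 (ENSMUSG00000029757, chr6:5725639-6028039, plus strand) is the intermediate chain gene made mainly in neurons. Its AAV-miR SOD1 libraries had 65.1, 100.5, 71.2 and 96.2 CPM, AAV-miR ctrl libraries 95.5, 131, 123, 233 and 212 CPM, and non-injected libraries 105, 235.5, 167 and 155 CPM. Only AAV-miR ctrl replicate 1 came within the AAV-miR SOD1 range. With a log2 fold change of -0.93 ± 0.30 against AAV-miR ctrl (edgeR adjusted p = 0.258), -0.99 ± 0.31 against non-injected (edgeR adjusted p = 0.141) and -0.96 ± 0.28 against both (edgeR adjusted p = 0.101, 0.513 times the control level, 95% interval of the log2 value -1.55 to -0.37), it had the smallest unadjusted p of the 10 genes against both control groups, 0.0035.

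Dync1h1 (ENSMUSG00000018707, chr12:110601452-110666945, plus strand), the single heavy chain of this dynein, had 140.4 ± 37.5 CPM (SD, n = 4) in AAV-miR SOD1, 202 ± 48.3 (n = 5) in AAV-miR ctrl and 222 ± 74.7 (n = 4) in non-injected mice. Its log2 fold changes, -0.52 ± 0.26 and -0.66 ± 0.27 (edgeR adjusted p = 0.374 and 0.193), were smaller than those of Dync1i1, and the difference between the genes was not tested. Antisense genes cover 451 bases of its exons.

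Dctn1 (ENSMUSG00000031865, chr6:83165920-83200117, plus strand) links dynein to microtubules and cargo. Its AAV-miR SOD1 libraries had 89.6, 93.8, 94.7 and 125 CPM, AAV-miR ctrl libraries 118, 127, 111, 174 and 174 CPM, and non-injected libraries 101, 150, 165.5 and 193 CPM. AAV-miR SOD1 replicates 1, 2 and 3 lay below every control, and replicate 4 lay above the lowest ones. The log2 fold changes were -0.48 ± 0.22 against AAV-miR ctrl (edgeR adjusted p = 0.335) and -0.60 ± 0.23 against non-injected (edgeR adjusted p = 0.174).

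**Figure D3:**
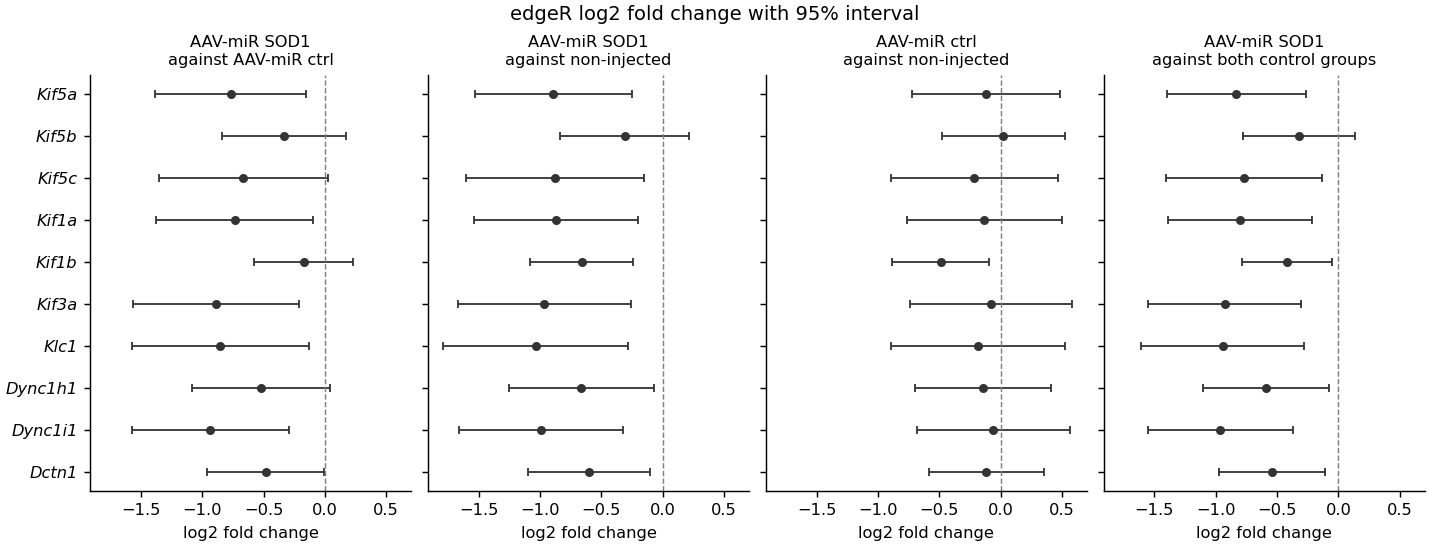
Log2 fold change (points) with 95% interval (bars) of each motor gene from edgeR in the 4 comparisons, with a dashed line at no change. In the comparison with both control groups the intervals of 9 genes lie below 0 and that of Kif5b runs from -0.78 to 0.13.

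Against both control groups together, 9 of the 10 genes were lower at an unadjusted p under 0.05 (12.1% of all tested genes were), with log2 fold changes from -0.96 for Dync1i1 to -0.32 for Kif5b. No gene of the whole table passed the adjusted threshold in any of the 4 edgeR comparisons (0.00% called), although 2529 passed an unadjusted p of 0.05 for AAV-miR SOD1 against AAV-miR ctrl, 3635 against non-injected, 3870 against both and 629 between the control groups. DESeq2 on the same counts called 180, 1025, 1521 and 2 genes in these comparisons, and limma-voom 0, 0, 1461 and 0. DESeq2's calls included Kif1b and Dync1i1 against non-injected (DESeq2 adjusted p = 0.0312 and 0.0483) and Kif5a, Kif1a, Kif3a, Klc1 and Dync1i1 against both (DESeq2 adjusted p from 0.0187 to 0.0494), beside 2.72% and 4.64% of all genes called lower. The limma-voom calls against both included Kif3a, Klc1 and Dync1i1 (limma-voom adjusted p from 0.0388 to 0.0493, beside 3.03% of all genes called lower).

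The size of these differences depended on which libraries were used, and each count of motor genes lower at an unadjusted p under 0.05 is given here with the share of all tested genes that were lower in the same fit. Among libraries numbered 1 to 4 alone, no motor gene was lower against AAV-miR ctrl (2.43% of all genes), with a median log2 fold change of -0.27. Against non-injected, which then consists of replicates 2 and 3, 8 were lower (7.64%), with a median of -0.88. These 2 libraries were far apart, with summed motor gene levels of 1535 CPM in replicate 2 and 3050 CPM in replicate 3. AAV-miR SOD1 replicate 2 had 1622 CPM, and non-injected replicate 3 is a library whose header disagrees with its label. Against both, 2 were lower (6.15%). Between the control groups of this set none was lower (1.34%), but the median of the motor genes was -0.52, larger in size than that of AAV-miR SOD1 against AAV-miR ctrl in the same libraries. Single libraries mattered too. Without AAV-miR SOD1 replicate 3, the lowest library for 6 of the genes, 1 gene instead of 6 was lower against AAV-miR ctrl (5.55%), 5 instead of 9 against non-injected (7.79%) and 4 instead of 9 against both (7.98%). Without AAV-miR SOD1 replicate 1, 3 were lower against AAV-miR ctrl (4.39%) and 5 against both (7.31%). Against AAV-miR ctrl, 3 were lower without AAV-miR ctrl replicate 5 (5.28%) and 2 without replicate 6 (5.1%). With both libraries of disagreeing header left out, 6 were lower against AAV-miR ctrl (7.21%), 3 against non-injected (5.23%) and 7 against both (7.75%), and the median between the control groups was 0.16 instead of -0.13. With these libraries exchanged instead, 9 were lower against AAV-miR ctrl (12.2%), 6 against non-injected (7.65%) and 9 against both (11.8%). The larger median difference was then against AAV-miR ctrl (-0.935), not against non-injected (-0.594). Every one of the 10 fold changes of AAV-miR SOD1 against each control group, and against both, stayed below 0 in all of these fits.

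The captured material was checked against markers of the cells it could hold. Motoneuron markers were detected in every library, with Chat, the enzyme that makes acetylcholine, at 39.1 to 66.8 CPM in AAV-miR SOD1, 73.8 to 131 CPM in AAV-miR ctrl and 82.9 to 155 CPM in non-injected mice. All 7 motoneuron markers and 6 of 9 pan-neuronal markers were lower in the AAV-miR SOD1 group at an unadjusted p under 0.05 against both control groups (12.1% of all genes). Their median log2 fold changes were -1.10 and -0.90, beside -0.79 for the motor genes. All 8 erythroid markers tested were higher (10.2% of all genes), with a median log2 fold change of 1.64, as were 7 of 10 neutrophil and B lineage markers (median 0.95) and 3 of 8 microglia markers (median 0.52).

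Summed erythroid markers spanned 21125 to 47797 CPM in AAV-miR SOD1, 3597 to 28327 CPM in AAV-miR ctrl and 5606 to 20357 CPM in non-injected libraries. Neutrophil and B lineage markers summed to 27817 to 74510, 9404 to 64920 and 13056 to 22780 CPM in the same groups. Of the markers of other cell types of the cord, 1 of 7 astrocyte genes was lower (Aldoc, log2 fold change -0.96 ± 0.24), and none of 6 oligodendrocyte, 5 endothelial or 4 inhibitory interneuron markers tested was past an unadjusted p of 0.05, with medians of -0.29, -0.53, -0.01 and -0.12. Of the markers, only Gad2 and Pax2, both of inhibitory interneurons, were at 0 in any library. In bulk RNA, a smaller share of motoneuron RNA and less RNA of these genes per motoneuron cannot be told apart, and the part of the blood and marrow markers in the motor gene values was not tested.

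**Figure D4:**
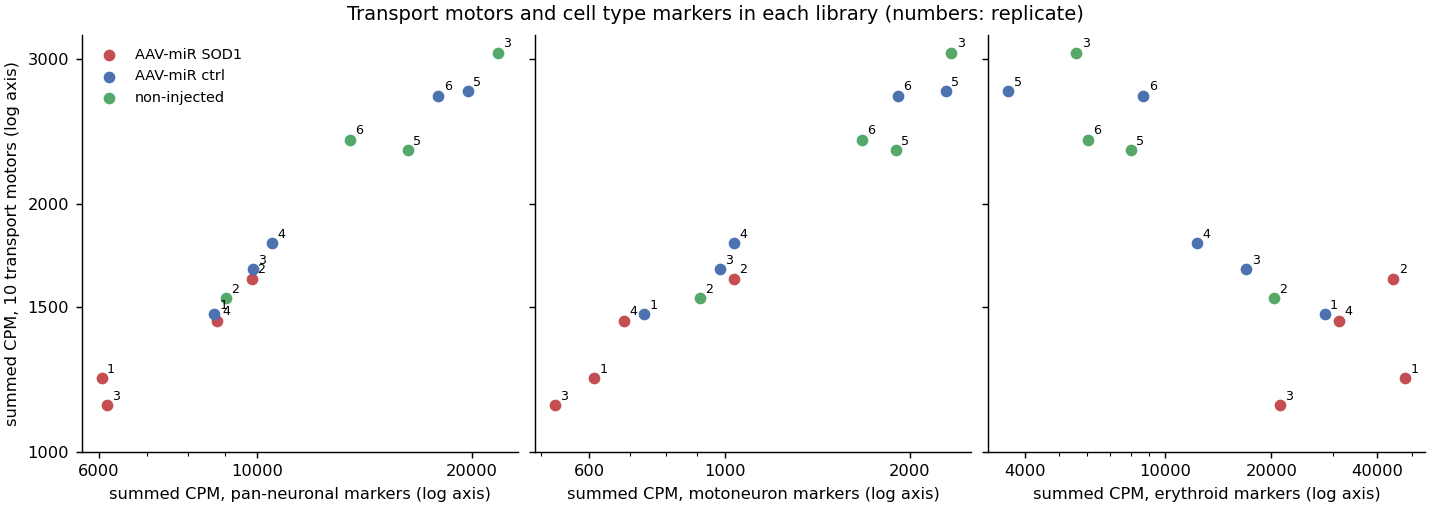
Summed CPM of the 10 motor genes (vertical, log axis) against summed CPM of pan-neuronal, motoneuron and erythroid markers (horizontal, log axes) in each library, with the replicate number beside each point. The AAV-miR SOD1 libraries span 1139 to 1622 CPM of motor genes against 1470 to 2739 CPM in AAV-miR ctrl and 1535 to 3050 CPM in non-injected mice.

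The motor genes were also set beside the neuronal signal of the same library. This ratio was chosen after the values were seen and was given no test. The log2 ratio of the summed motor genes to the summed pan-neuronal markers exceeded that of AAV-miR ctrl by 0.17 in the AAV-miR SOD1 group, and that of non-injected mice by 0.19, and for the single genes it differed by -0.13 (Dync1i1) to 0.57 (Kif1b) from AAV-miR ctrl and by -0.06 (Klc1) to 0.63 (Kif5b) from non-injected. The groups overlapped for every gene. Relative to neuronal markers, then, Kif5b, Kif1b, Dctn1 and Dync1h1 had the higher ratios in the AAV-miR SOD1 libraries, at 0.42, 0.57, 0.27 and 0.21 above AAV-miR ctrl, and the other 6 genes lay within -0.13 to 0.11 of it.

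The motor genes largely varied together from library to library. Over the 13 libraries, Pearson's r between log2 CPM of pairs of motor genes ran from 0.24 to 0.98 over 45 pairs, with a median of 0.86; these values are descriptive, since the libraries share differences in composition. Kif3a and Kif1a were closest to the rest (median r 0.95 each), and Kif5b and Kif1b the farthest (0.56 and 0.61). Genes of the whole table most like each motor gene by the same measure included Slc18a3, the vesicular acetylcholine transporter, for Klc1 (r = 0.99), Nell2 for Dync1i1 (0.99), Slc7a14 for Kif1a (0.99), Scamp5 for Kif5c (0.99), Sult4a1 for Kif3a (0.99) and Susd2 for Kif5a (0.98). For Dync1h1 it was AI413582 (0.98). Likeness was lower for Dctn1 (Bbs4, 0.96), Kif5b (Pop5, 0.94) and Kif1b (Kcnj12, 0.91). The lowest library was AAV-miR SOD1 replicate 3 for 6 of the 10 genes, and the highest was non-injected replicate 3 for 5.

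The rest of the transport machinery was followed through lists of its parts, all against both control groups. Of 13 other kinesin subunits of transport, 4 were lower at an unadjusted p under 0.05 and none higher (12.1% and 10.2% of all tested genes), with a median log2 fold change of -0.20 and a range of -0.88 to 1.08. Kifap3, the Kap3 partner of Kif3a, was among them at 88.3 to 125 CPM in AAV-miR SOD1 and 128 to 286 CPM in the controls (log2 fold change -0.68 ± 0.22, edgeR adjusted p = 0.112), beside Kif3c at -0.88 and the light chain Klc2 at -0.78. Of 8 other cytoplasmic dynein subunits, 4 were lower (12.1% of all genes; median -0.38), led by the light intermediate chain Dync1li1 at -0.62 and Dynlrb1 at -0.44. Of 11 other dynactin subunits, 6 were lower (12.1% of all genes; median -0.39), with Dctn3 at -0.71 and Dctn6 at -0.54.

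Adaptors that tie motors to cargo or regulate them gave 10 lower and 1 higher of 26 (median -0.33), where 12.1% of all tested genes were lower and 10.2% higher. Fez1, a kinesin-1 adaptor, had 56.0 to 109.5 CPM in AAV-miR SOD1, 106 to 229 CPM in AAV-miR ctrl and 93.6 to 199 CPM in non-injected mice (log2 fold change -1.05 ± 0.28, edgeR adjusted p = 0.096). Clstn1, a cargo receptor of light chains, stood at -0.70 and Ndel1, a dynein regulator, at -0.57. Of 12 genes for the microtubule tracks themselves, 7 were lower (12.1% of all genes; median -0.54), among them Mapt, which encodes tau, at -0.93 ± 0.22 and the tubulin gene Tubb4a at -1.32 ± 0.34 (edgeR adjusted p = 0.096 for each).

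Kinesins of cell division had higher levels in the AAV-miR SOD1 group. All 13 mitotic kinesins were higher in AAV-miR SOD1 at an unadjusted p under 0.05 against both control groups, where 10.2% of all tested genes were, with a median log2 fold change of 1.14. Kif11, which slides spindle microtubules apart, had 29.8 to 82.9 CPM in AAV-miR SOD1, 13.7 to 48.1 CPM in AAV-miR ctrl and 12.2 to 32.8 CPM in non-injected mice (log2 fold change 1.30 ± 0.32, edgeR adjusted p = 0.096). Kif18b stood at 1.44 ± 0.32 and Kif18a at 1.08 ± 0.27. Their summed level was 202 to 514 CPM in AAV-miR SOD1, 119 to 305 CPM in AAV-miR ctrl and 100.3 to 209.9 CPM in non-injected libraries, and was highest in the library with the highest erythroid sum, AAV-miR SOD1 replicate 1. The part of the erythroid and marrow signal in this result was not tested.

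**Figure D5:**
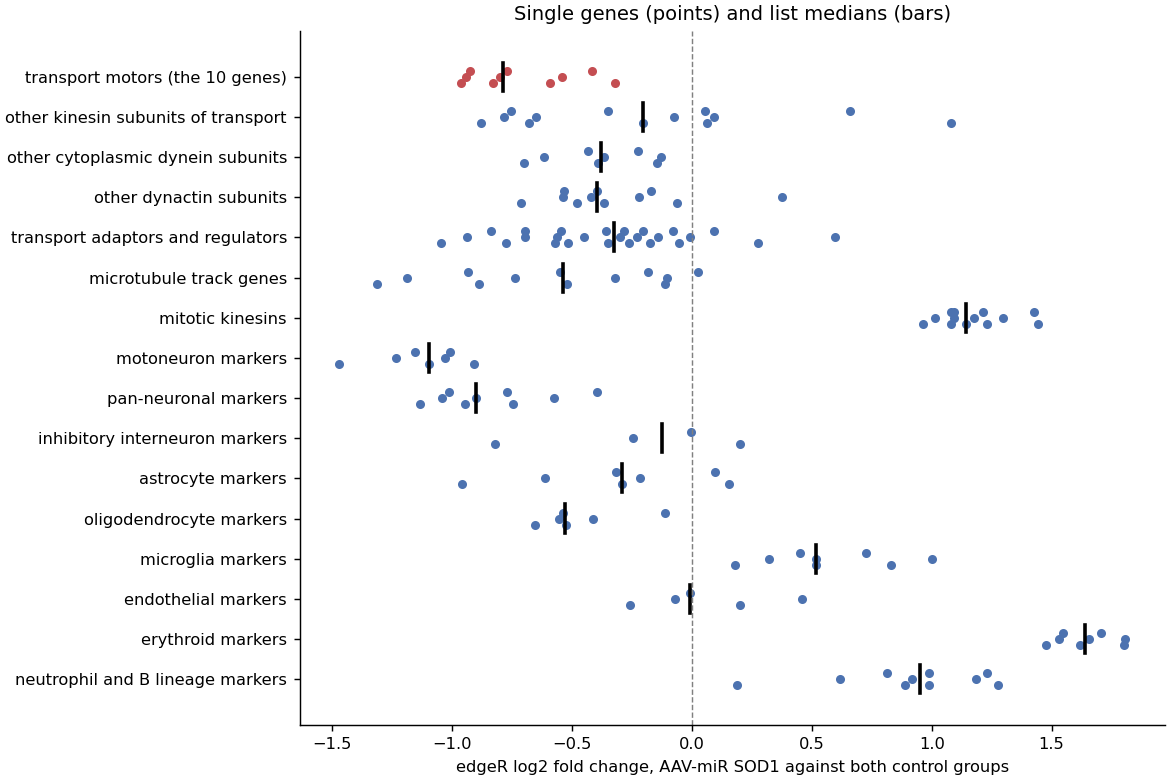
Log2 fold change of AAV-miR SOD1 against both control groups (horizontal axis) for every tested gene of each list (points), with the list median (black bars). The median of the 10 motor genes (red) is -0.79. Medians of other lists include -1.10 for motoneuron markers, -0.90 for pan-neuronal markers, -0.54 for microtubule track genes and -0.53 for oligodendrocyte markers. The mitotic kinesins (1.14) lie on the side of the erythroid markers (1.64).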

How the data were processed

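The deposited tables hold raw counts of reads per gene, 1 table per library, with 48709 gene rows and 5 summary rows that were left out of library sizes. Per the submitters' processing notes, reads were handled with cutadapt 1.8, STAR 2.5.2b and HTSeq 0.6.1 on GRCm38; the annotation release and strand setting are not given in the sources used here. Ambiguous reads made up 4.13 to 5.49% of the reads counted to genes or ambiguous. Groups follow the sample titles. Symbols, coordinates and merged exon lengths came from GENCODE M21 (GRCm38), which matched 48349 identifiers holding 99.986% of counts. Amplified cDNA was sequenced with no molecular identifiers stated in the labels, so read counts are not counts of molecules.

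In R 4.3.3, low genes were removed with filterByExpr of edgeR 4.0.16 (at least 10 reads in enough libraries and 15 in all), which left 17403, libraries were scaled by TMM, and edgeR's quasi-likelihood test was fitted on all 13 libraries with Benjamini-Hochberg adjustment over all genes tested (threshold 0.05). CPM are scaled by TMM, and log2 CPM use a prior count of 2. Standard errors were derived from the fold change and its F statistic. The pipeline was tested on simulated data. Alternatives were DESeq2 1.42.0, limma-voom (limma 3.58.1, quality weights), other scaling, no filter, groups compared alone, a replicate block, the exchange or omission of the libraries with disagreeing headers, libraries numbered 1 to 4, and each library left out in turn. The 10 genes and all gene lists were chosen with earlier results of these data known, and markers of other cell types are textbook genes. In each list, the genes named are the 3 with the smallest p against both control groups, or those among them that are described. No 2 libraries were copies of each other: counts of every pair differed beyond sampling noise.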

Additional observations from a re-analysis of the deposited data

Results flagged for a closer look

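Across the 10 genes and 3 groups (30 sets of libraries), 2 libraries stood apart from their group by Dixon's ratio of gap to range, where chance gives about 1 in 20 sets, or 1.5. Both were AAV-miR SOD1 replicate 4. For Kif5b it was the lowest of its group, at a log2 CPM of 7.22 with the nearest library at 7.80 (ratio 0.863). For Dctn1 it was the highest of its group, at 6.96 with the nearest at 6.57 (ratio 0.833). Without this library, the counts of motor genes lower at an unadjusted p under 0.05 were the same as with it. They were 6 against AAV-miR ctrl (8.38% of all tested genes in that fit), 9 against non-injected (10.4%) and 9 against both (11%).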

How the results depend on the processing

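All 10 motor genes kept a fold change below 0 for AAV-miR SOD1 against each control group and against both under every alternative run. The number of genes past the adjusted threshold, 0 in each of the 4 comparisons by edgeR, was by DESeq2 180 for AAV-miR SOD1 against AAV-miR ctrl, 1025 against non-injected mice, 1521 against both, and 2 for the control groups. Against both it was 1461 by limma-voom, 1 with no filter on low counts, and 0 to 1694 with single libraries left out. It was 121 without AAV-miR SOD1 replicate 3, 1 without AAV-miR SOD1 replicate 4 and 1694 of 17217 tested genes without AAV-miR ctrl replicate 1. Those 1694 genes, counted in both directions, included Kif3a, Klc1 and Dync1i1 (edgeR adjusted p from 0.0298 to 0.0462). In the other 3 comparisons, leaving out any single library left the number of genes past the threshold at 0. Scaling by DESeq2's size factors and the comparison of groups alone left it at 0 too; the cause of these differences was not tested.

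Between the control groups the direction was not stable, except for Kif1b, which stayed below 0 in all 22 alternatives (-0.55 to -0.30). Klc1 stayed below 0 with any single library left out (-0.38 to -0.028). With the libraries of disagreeing header exchanged, the log2 fold change of AAV-miR ctrl against non-injected was 0.29 for Kif5a, 0.45 for Kif5c, 0.31 for Kif1a, 0.34 for Kif3a, 0.32 for Klc1, 0.31 for Dync1h1 and 0.37 for Dync1i1. With both left out, an alternative chosen after seeing the data, it was 0.14 for Kif5a, 0.19 for Kif5c, 0.15 for Kif1a, 0.20 for Kif3a, 0.10 for Klc1, 0.16 for Dync1h1 and 0.24 for Dync1i1. Among libraries numbered 1 to 4 it was below 0 for all 10 genes (median -0.52, against -0.13 with all libraries), with -0.11 for Kif5b. With single libraries left out it ran from -0.29 to 0.04 for Kif5a, -0.094 to 0.178 for Kif5b, -0.39 to 0.079 for Kif5c, -0.30 to 0.088 for Kif1a, -0.26 to 0.11 for Kif3a, -0.25 to 0.12 for Dync1h1, -0.24 to 0.16 for Dync1i1 and -0.25 to 0.02 for Dctn1; the cause was not tested.

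The labels do not say whether libraries with the same replicate number are paired. Of the 8 same-number pairs, 3 deviated together with a correlation over 0.1 (range -0.19 to 0.24), and 3 of 13 libraries correlated best with their own number. These few correlations cannot decide whether such libraries share more than the number. With a replicate block, the number of genes past the adjusted threshold stayed at 0 in all 4 comparisons. Motor genes lower in AAV-miR SOD1 at an unadjusted p under 0.05 then numbered 0 against AAV-miR ctrl (3.41% of all tested genes), 1 against non-injected mice (3.32%) and 0 against both (4.67%). Between the control groups 1 was lower (1.81%), and Dync1i1 stood at a log2 fold change of 0.023. In this fit the median log2 fold change of the motor genes in AAV-miR SOD1 was -0.44 against AAV-miR ctrl, -0.56 against non-injected and -0.50 against both. The block fits more terms from the same 13 libraries, so its counts at this threshold are not like those of the main fit.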
